A study of Mus musculus with 10 samples.

Results

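The Zfp genes are mouse genes named Zfp (zinc finger protein) and a number. All genes of the deposited table with such a symbol were taken, without Zfp36, whose CCCH fingers bind RNA, and this gave 234 genes of the 12637 in the table. The cells were CD8+ T cells of naive phenotype (CD62L high, CD44 low or absent), sorted from the spleens of C57Bl/6 females aged 6 weeks. One genotype was wild type (WT). The other, Ikaros-Zn4-/-, called mutant here, lacks zinc finger 4 of Ikaros, a DNA-binding regulator of lymphocytes. Cells were used directly (0 min) or received 30 or 120 min of plate-bound anti-CD3 and anti-CD28, a stimulus for the T cell receptor and its costimulatory partner. For each genotype there were 2 libraries of 0 min, 2 of 30 min and 1 of 120 min. Whether replicates came from separate mice is not in the labels, and p-values therefore cover only the spread among these libraries, which may be technical.

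Most Zfp proteins carry C2H2 fingers, short loops in which 2 cysteines and 2 histidines hold a zinc ion, and arrays of such fingers read DNA. Many also begin with a KRAB domain, which recruits the corepressor Trim28 (KAP1) and, through it, the methyltransferase Setdb1 and HP1 proteins to silence chromatin, above all at retroelements. KRAB zinc finger genes arose by repeated duplication and lie in clusters, while members without KRAB include activators, ubiquitin ligases and RNA-binding proteins.

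The members fitted that description in their sequences. By GENCODE M21, on whose GRCm38 coordinates gene positions are given, 232 of the 234 were protein coding and 2, Zfp783 and Zfp125, were transcribed pseudogenes. A script that translated the coding sequences found a median of 10 C2H2 fingers per protein. Zfp142 had the most, 36, and the pattern found 0 in Zfp365, Zfp839, Zfp935, Zfp703 and Zfp330. A KRAB A box was matched in 123 members and not in 109. Chromosome 7 held 65 members, chromosome 17 held 27, and chromosomes 13 and 8 held 18 each. Of the members, 122 lay in runs of 3 or more with gaps of at most 500 kb, 18 lay in pairs and 94 lay alone.

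One finger with its linker is shown for 3 members on which the results below turn, Zfp317, Zfp948 and Zfp61. Each is a stretch of 78 coding bases, with the codons of the 2 cysteines and 2 histidines in capitals:
Zfp317: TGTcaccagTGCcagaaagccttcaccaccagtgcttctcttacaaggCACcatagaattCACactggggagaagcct
Zfp948: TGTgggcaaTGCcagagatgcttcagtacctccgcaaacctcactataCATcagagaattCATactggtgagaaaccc
Zfp61: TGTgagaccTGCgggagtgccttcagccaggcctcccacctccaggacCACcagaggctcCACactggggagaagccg
Zfp317 and Zfp948 were identical at 52 of the 78 bases, Zfp61 and Zfp948 at 47, and Zfp61 and Zfp317 at 45. Such likeness between members also touches the measurement. How the authors treated reads that match more than 1 place is not given in the sources used here, and values of near-identical members are therefore uncertain.

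The 250 bases before the start site are shown for 5 members, taken from RefSeq (GRCm38.p6), which gave a promoter for 195 of the 234. Zfp317 and Zfp14 were lower at 120 min, Zfp790 and Zfp948 were higher at 120 min, and Zfp61 was higher in the mutant. Capitals mark matches, on either strand, to any of 5 motifs. TGGGAA is the core bound by Ikaros, TGACGT that of CREB and ATF factors, TGANTCA that of AP-1 and CCGGAA that of ETS factors. The last, ACTACATTTCCCA, is the word of 13 bases that stood in more member promoters than any other word of that length, and it resembles an element known to be bound by Zfp143. Its final 6 bases are TGGGAA read on the other strand.
Zfp317, chr9:19621841-19622090, plus strand: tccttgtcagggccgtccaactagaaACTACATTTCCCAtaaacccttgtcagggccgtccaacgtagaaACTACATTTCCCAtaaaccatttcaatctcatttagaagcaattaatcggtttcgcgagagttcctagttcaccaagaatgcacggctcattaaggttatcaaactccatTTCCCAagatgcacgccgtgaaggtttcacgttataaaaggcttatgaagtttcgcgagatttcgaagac
Zfp14, chr7:30051397-30051646, minus strand: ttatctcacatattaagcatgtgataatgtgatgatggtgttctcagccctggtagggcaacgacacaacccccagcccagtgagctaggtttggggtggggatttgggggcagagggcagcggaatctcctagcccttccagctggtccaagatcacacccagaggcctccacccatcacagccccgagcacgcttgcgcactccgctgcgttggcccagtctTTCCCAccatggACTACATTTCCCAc
Zfp790, chr7:29815822-29816071, plus strand: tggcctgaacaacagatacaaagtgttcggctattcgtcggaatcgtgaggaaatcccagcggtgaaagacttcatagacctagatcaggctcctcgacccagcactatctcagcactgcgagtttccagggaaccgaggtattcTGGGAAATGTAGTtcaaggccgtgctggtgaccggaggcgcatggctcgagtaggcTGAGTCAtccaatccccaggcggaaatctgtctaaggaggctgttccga
Zfp948, chr17:21566728-21566977, plus strand: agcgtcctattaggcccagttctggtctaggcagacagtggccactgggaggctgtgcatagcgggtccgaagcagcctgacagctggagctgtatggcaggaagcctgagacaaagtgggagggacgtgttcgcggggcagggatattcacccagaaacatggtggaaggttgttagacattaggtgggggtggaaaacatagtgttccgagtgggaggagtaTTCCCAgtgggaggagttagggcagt
Zfp61, chr7:24299550-24299799, minus strand: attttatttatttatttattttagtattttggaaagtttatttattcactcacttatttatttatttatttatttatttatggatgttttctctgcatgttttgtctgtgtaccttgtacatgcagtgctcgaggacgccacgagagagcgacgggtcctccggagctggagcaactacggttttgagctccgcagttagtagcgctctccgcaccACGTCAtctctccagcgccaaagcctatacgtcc
The word ACTACATTTCCCA was found in 16 of the 195 member promoters (8.21%), against 1.05% of the 7690 promoters of genes tested here and 0.437% of all 27025 promoters. Zfp317 had 2 copies, and 9 of the 16 members lay on chromosome 7. Since the word was picked for its frequency in these promoters, and members that arose by duplication may share promoter sequence, the shares are a description. TGGGAA stood in 31.3% of member promoters against 20.2% of those of genes tested. The 16 member promoters with the word are all among the 61 with TGGGAA, so its share is partly that of the picked word. CCGGAA stood in 29.7% against 25.2%, TGACGT in 12.8% against 11.4% and TGANTCA in 4.10% against 3.93%.

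The data were RPKM values, that is, reads divided by gene length and by the depth of the library. Read depths recovered from them were 4.50 to 13.3 M per library, and the median member rested on 83 to 247.5 reads in a library. Members were mostly low. Their median level over the 10 libraries was 3.47 RPKM, against 6.22 RPKM over all genes of the table, and 45 of 234 were above 10 RPKM. Together they made up 0.460% to 0.632% of the summed RPKM of a library. The members of highest mean level were Zfp592 at 43.2 RPKM, the ribosome-collision ubiquitin ligase Zfp598 at 33.7, Zfp740 at 31.9, the corepressor-associated Zfp217 at 27.3, Zfp131 at 25.5, Zfp646 at 25.2, Zfp146 at 23.7, the ribosome assembly factor Zfp622 at 21.7, Zfp53 at 20.6 and Zfp212 at 20.3. Of these 10, only Zfp53 and Zfp212 had a KRAB match. No gene of the table stayed below a mean of 1 RPKM in all 6 groups. That limit shapes the counts below, since 34 members reached 1 RPKM only at 0 min and 5 only at 120 min, and such members had to differ between times. Zfp72 and Zfp617, with means of 0.446 and 0.499 RPKM, were below the minimum of 0.5 RPKM and were not tested, which left 232 members.

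**Figure D1:**
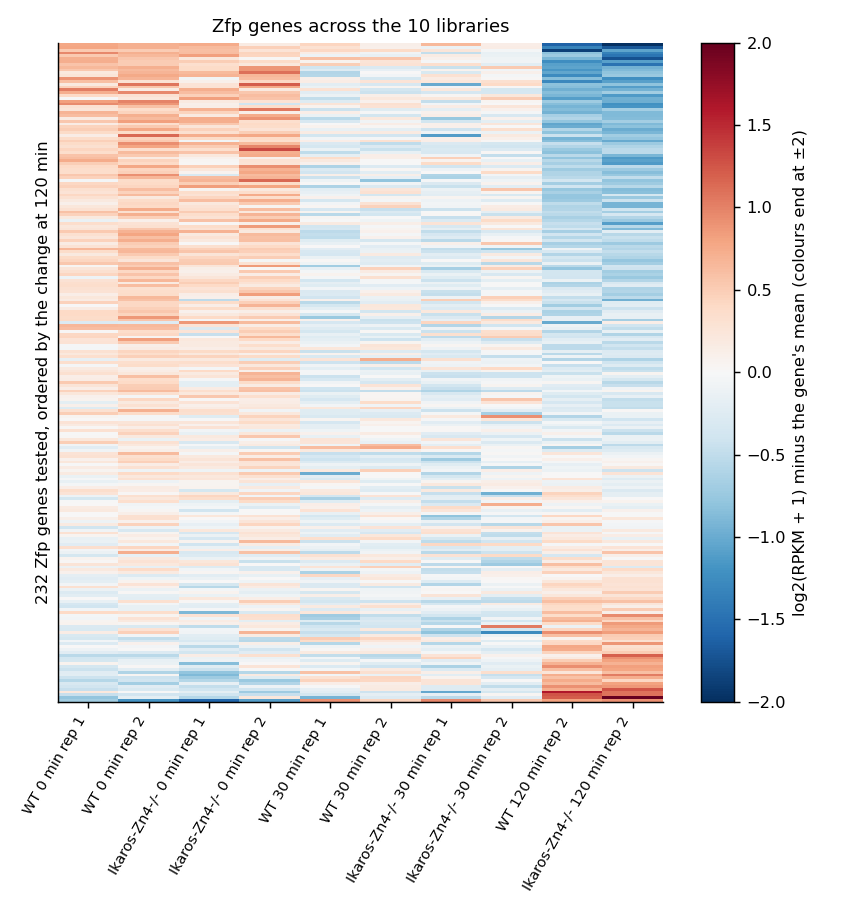
Each row is 1 of the 232 Zfp genes tested and each column 1 library; the colour gives log2(RPKM + 1) minus the gene's mean over the 10 libraries, and rows are ordered by the change from 0 to 120 min. Most rows are red at 0 min and blue at 120 min, and a smaller block at the bottom is red at 120 min.

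The first comparison asked which Zfp genes had changed after 30 min of stimulation, as the mean of both genotypes. Members fell far more often than they rose: 65 of 232 were lower and 8 higher at an adjusted p below 0.05 (limma, Benjamini-Hochberg over all genes). Together these are 31.5% of the members, where 19.0% of all 12203 genes tested were called. Among all genes 12.5% were lower and 6.51% higher, and the median log2 change was -0.33 in the members and -0.13 in all genes. Log2 changes here and below are of RPKM + 1, which understates the change of low genes. In bulk RNA, fewer cells and less RNA per cell cannot be told apart, and RPKM is relative to the rest of the library. Among the 154 members with a mean of at least 2 RPKM, 32.5% were lower and 5.84% higher, against 15.7% and 8.08% of all genes at that level.

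Among the steepest early falls were those of Zfp799, Zfp160 and Zfp623. Zfp799, a KRAB gene with 16 fingers, stood at 2.81 and 3.49 RPKM in WT cells and 2.53 and 2.36 in mutant cells at 0 min. At 30 min it was at 0.976 and 0.707 in WT cells and 0.821 and 0.832 in mutant cells. It thus fell 3.35-fold in mean RPKM, and the log2 change was -1.04 ± 0.13 (SE, adjusted p = 0.00472). It went on to 0.278 and 0.428 RPKM at 120 min, below every library of 30 min. Since only its 0 min groups reach 1 RPKM, it is 1 of the 34 members that had to differ. Zfp160, a KRAB gene with 18 fingers, was at 2.63 to 3.44 RPKM in the 4 libraries of 0 min and at 0.902 to 1.14 in the 4 of 30 min (log2 change -1.02 ± 0.12, adjusted p = 0.00424). Zfp623 has no KRAB match and was at 4.39 to 6.18 RPKM at 0 min and 1.61 to 2.46 at 30 min (-1.02 ± 0.12, adjusted p = 0.00426). In none of these 3 did the libraries of the 2 times overlap.

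The other 7 of the 10 largest falls were Zfp87 at -1.06, Zfp397 at -1.03, Zfp882 at -1.01, Zfp120 at -1.0, Zfp607 and Zfp763 at -0.98 each, and Zfp329 at -0.96. Relative to the median of all genes the last of these is -0.83. Zfp882, Zfp763 and Zfp329 also reach 1 RPKM only at 0 min. For 86 members (37.1%) every library of 30 min was below every library of 0 min, as for 15.0% of all genes. For 12 (5.17%) every one was above, as for 6.92% of all genes. Of the 65 members lower, 14 were among those that reach 1 RPKM only at 0 min.

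Of the 8 members that rose at 30 min, 4 had a KRAB match and 4 did not, and 7 had a mean over the 10 libraries above 6.02 RPKM. Zfp703 (chr8:26977325-26981461), a corepressor-like protein in which the pattern found no C2H2 finger, had the largest rise. Its level was 5.41 and 3.58 RPKM in WT cells and 2.45 and 3.83 in mutant cells at 0 min. At 30 min it was 18.5 and 13.1 in WT cells and 19.1 and 14.1 in mutant cells, and at 120 min 17.2 and 18.5. Every stimulated library was above every library of 0 min, the mean rose 4.25-fold by 30 min, and the log2 change was 1.85 ± 0.19 (adjusted p = 0.00263). From 30 to 120 min its change was 0.15 ± 0.23 (adjusted p = 0.63).

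Zfp212 (chr6:47920476-47932639), a KRAB gene with 4 fingers, was at 10.9 to 14.4 RPKM at 0 min, 19.1 to 26.4 at 30 min, and 32.7 in WT and 25.8 in mutant cells at 120 min. Its log2 change at 30 min was 0.85 ± 0.10 (adjusted p = 0.00387), again with no overlap of libraries. Zfp367 rose by 0.88, Zfp954 by 0.67, Zfp868 by 0.62, Zfp747 by 0.56, Zfp622 by 0.55 and Zfp292 by 0.41. The libraries of Zfp868 and Zfp747 overlapped between the 2 times. With 1 library left out, the call was lost for Zfp747 in 6 of the 10 fits and for Zfp868 and Zfp292 in 5 each, with adjusted p-values of up to 0.114, 0.0649 and 0.0789. Zfp622 works in the maturation of the large ribosomal subunit, and it was at 16.5 to 19.1 RPKM at 0 min, 24.8 to 28.5 at 30 min, and 16.7 in WT and 23.2 in mutant cells at 120 min.

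The number lower at 30 min depended on single libraries. It was 27 without WT replicate 1 and 17 without WT replicate 2 of 0 min, and 19 and 32 without WT replicates 1 and 2 of 30 min. It was 43 and 22 without mutant replicates 1 and 2 of 0 min and 31 without mutant replicate 1 of 30 min. With all genes set to a common median the split of higher to lower was 14 to 39, and with quantile normalization it was 15 to 35.

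**Figure D2:**
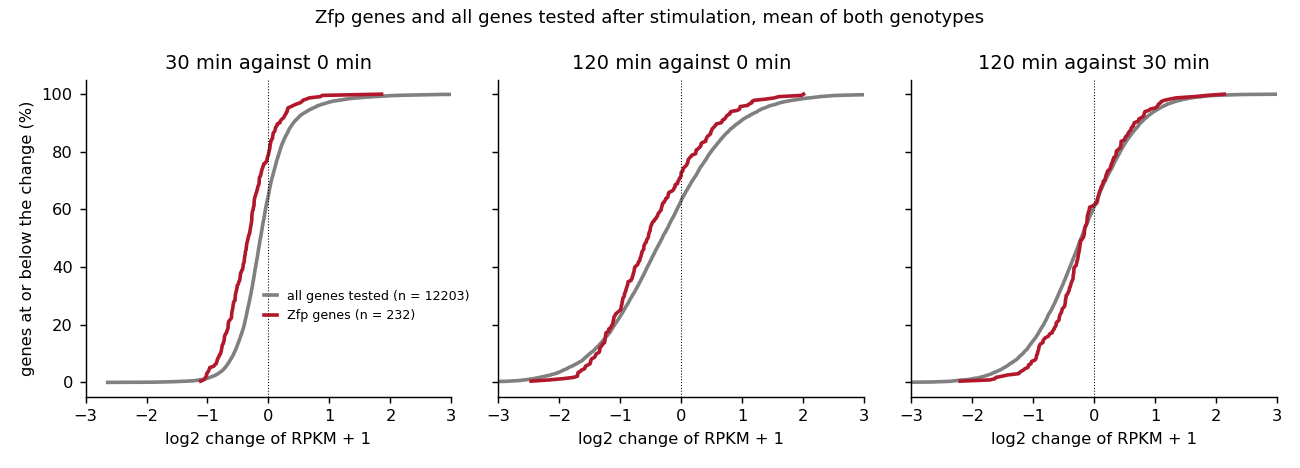
Cumulative percent of genes (vertical axis) at or below a log2 change of RPKM + 1 (horizontal axis) for the 232 Zfp genes (red) and all 12203 genes tested (grey), in 3 comparisons of times. The red curve lies left of the grey one at 30 min, with medians of -0.33 and -0.13, and at 120 min over most of its length, with medians of -0.55 and -0.32, while from 30 to 120 min the medians are -0.18 and -0.22.

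After 120 min the change was larger and went both ways. Against 0 min, 123 of the 232 members were lower and 30 higher (65.9% called, where 59.7% of all genes were, 40.4% lower and 19.3% higher). A drop of at least 1 on the log2 scale was seen in 25% of members and 23.1% of all genes, and a rise of that size in 4.31% and 8.91%. Of the 123, 26 reach 1 RPKM only at 0 min. With median-ratio scaling and quantile normalization, median log2 changes were -0.28 and -0.15 in the members and -0.003 and -0.025 in all genes. The split of members was then 57 higher to 90 lower and 55 to 70. Without the mutant library of 120 min only WT cells remained in the comparison, with median log2 changes of -0.54 in the members and -0.29 in all genes. With 1 library per genotype at 120 min, its variation was taken from the other groups. The 5 CD8 T cell markers, all measured, also moved with time, summing to 1948 to 2526 RPKM at 0 min, 1287 to 2115 at 30 min and 469 to 557 at 120 min. The 5 markers of naive T cells summed to 1347 to 1537, 1730 to 1922, and 1229 to 1462.5 RPKM. Their part in the time results was not tested.

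Zfp692 (chr11:58307069-58314627), a DNA-binding protein with 5 fingers, had the largest fall. It was at 19.3 and 18.3 RPKM in WT and 18.8 and 12.2 in mutant cells at 0 min, and at 11.8 to 17.5 at 30 min. At 120 min only 2.86 RPKM in WT and 1.72 in mutant cells remained, 7.48-fold below the mean of 0 min (log2 change -2.46 ± 0.22, adjusted p = 0.000115). The libraries of 0 and 30 min overlapped, and those of 120 min lay below all others. Zfp414 (chr17:33629090-33631779) declined at each step, from 6.78 to 8.62 RPKM at 0 min to 4.17 to 5.88 at 30 min and 1.21 in WT and 0.718 in mutant cells at 120 min. Its log2 change to 120 min was -2.17 ± 0.14 (adjusted p = 4.49e-05).

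Zfp317 (chr9:19622102-19649731), the KRAB gene with 2 copies of ACTACATTTCCCA in the promoter shown above, was at 13.4 to 17.0 RPKM at 0 min and 10.6 to 14.7 at 30 min. At 120 min it was at 2.25 RPKM in WT and 4.71 in mutant cells (log2 change -1.94 ± 0.14, adjusted p = 5.98e-05). Zfp14, whose promoter holds 1 copy, had 74 and 83 recovered reads in WT cells at 0 min and 0 in the WT library of 120 min. In mutant cells it had 78 and 44 reads at 0 min and 2 at 120 min, so its log2 change of -1.65 rests on the added 1 RPKM and is no measure of a fold. Zfp790, a KRAB gene with 12 fingers whose promoter also holds 1 copy, was at 4.30 to 4.76 RPKM at 0 min, 2.48 to 3.79 at 30 min, and 5.75 in WT and 8.31 in mutant cells at 120 min (0.52 ± 0.16, adjusted p = 0.0263). Genes with the word thus moved in both directions. Of the members with a promoter, it stood in 8 of 103 that were lower at 120 min and in 1 of 26 that were higher.

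The other large falls were Zfp526 at -1.77, Zfp445, Zfp831 and Zfp512 at -1.70 each, Zfp956 at -1.69 and Zfp810 at -1.64. In all of these the 2 libraries of 120 min were below the 4 of 0 min, as for 134 of the 232 members (57.8%) and 43.3% of all genes.

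The largest rises at 120 min after Zfp703 were in genes that had not been called at 30 min. Zfp948 (chr17:21567008-21588699), a KRAB gene with 15 fingers, was at 0.713 and 1.59 RPKM in WT and 1.00 and 2.47 in mutant cells at 0 min, and at 0.561 to 1.53 at 30 min. At 120 min it was at 5.87 RPKM in WT and 11.4 in mutant cells, 5.98-fold above the mean of 0 min (log2 change 1.97 ± 0.31, adjusted p = 0.00145). Zfp382 (chr7:30121942-30134950), a KRAB gene with 9 fingers, was at 1.32 to 3.42 RPKM at 0 min, 0.873 to 2.31 at 30 min, and 10.6 in WT and 7.12 in mutant cells at 120 min (1.53 ± 0.24, adjusted p = 0.00145). In both genes the 2 libraries of 120 min stood well above the other 8.

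The log2 change of Zfp651 was 1.60 with 1 RPKM added and 3.63 with 0.1 added, so it is no measure of a fold. Zfp651 came up from almost nothing, and only its 120 min groups reach 1 RPKM. It is thus 1 of the 5 members that had to differ between times for that reason. It was at 0.0699 to 0.124 RPKM at 0 min, 0.149 to 0.518 at 30 min and 2.53 and 2.12 at 120 min, with as few as 2 reads in a library before (1.60 ± 0.18, adjusted p = 0.00035). Zfp131, a BTB-domain transcription factor, was at 16.7 to 18.9 RPKM at 0 min, 19.5 to 26.6 at 30 min, and 39.3 in WT and 57.6 in mutant cells at 120 min (1.38 ± 0.13, adjusted p = 0.000131). Zfp644 rose by 1.19, Zfp821 by 1.16, Zfp212 by 1.15, Zfp747 by 1.11 and Zfp689 by 1.09. The call of Zfp689 was lost without the mutant library of 120 min, where only WT cells remained in the comparison. In 42 members (18.1%) both libraries of 120 min were above the 4 of 0 min, as in 22.1% of all genes.

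**Figure D3:**
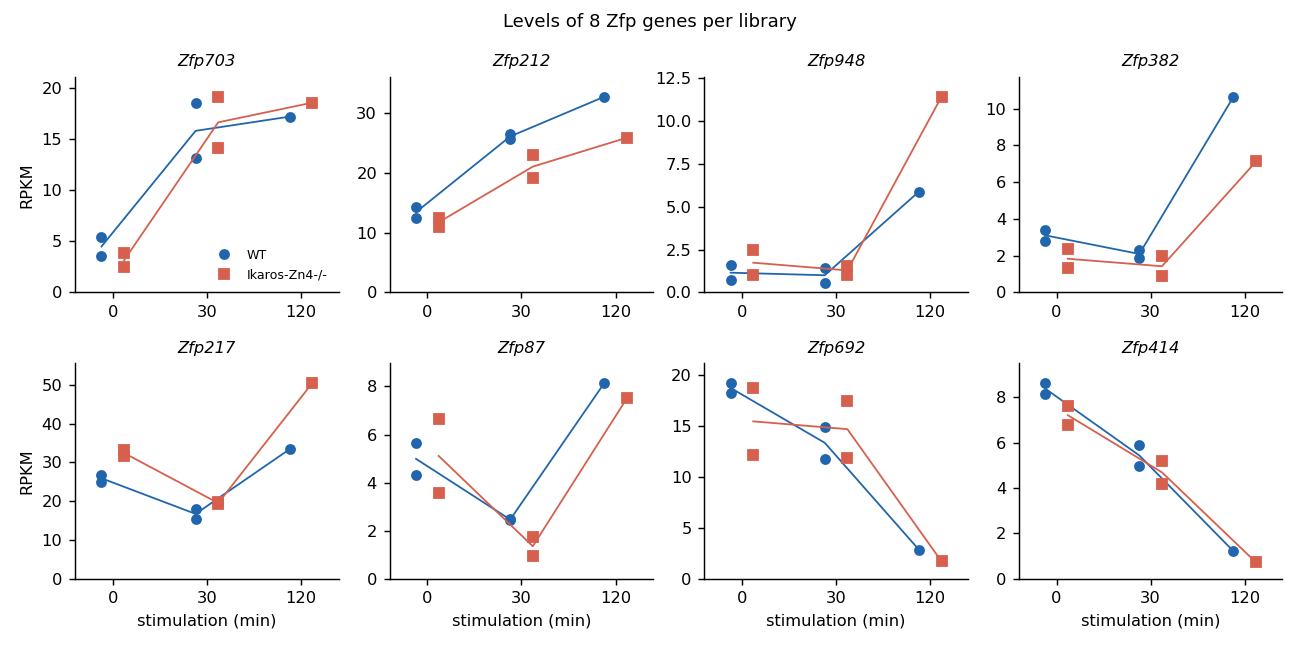
RPKM (vertical axes, each from 0) of 8 Zfp genes at 0, 30 and 120 min, drawn at even spacing, in WT (blue circles) and Ikaros-Zn4-/- cells (red squares); each point is 1 library and lines join group means. Zfp703 and Zfp212 are up by 30 min, Zfp948 and Zfp382 only at 120 min, Zfp217 and Zfp87 dip at 30 min, and Zfp692 and Zfp414 end at 2.86 RPKM or less.

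From 30 to 120 min 34 members rose and 57 fell (39.2%, where 48.2% of all genes were called, 16.9% higher and 31.3% lower). With median-ratio scaling and quantile normalization, median log2 changes were -0.015 and 0.10 in the members and -0.017 and 0.006 in all genes. The split of members was then 59 to 42 and 61 to 34, so here the balance turned with the scaling. Without the mutant library of 120 min it was 16 to 29. The comparison shares the libraries of 30 min with the first, so a member that was low by error at 30 min would appear in both. By both calls, 8 members fell and then rose, 14 fell in both steps, 43 fell and were then not called, 25 rose and 41 fell only in the second step, and 93 were called in neither. These patterns were not counted over all genes, so whether any of them is more common among members is not known.

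The members that fell and then rose were Zfp87, Zfp160, Zfp217, Zfp319, Zfp513, Zfp790, Zfp809 and Zfp871. Zfp217 (chr2:170108643-170148103), which works with the CoREST and CtBP corepressors, was at 25.03 and 26.8 RPKM in WT and 31.6 and 33.2 in mutant cells at 0 min. It was at 15.3 to 19.7 at 30 min and at 33.4 in WT and 50.5 in mutant cells at 120 min. All 4 libraries of 30 min were thus below, and both of 120 min above, the 4 of 0 min. The log2 change was -0.66 ± 0.09 in the first step (adjusted p = 0.00551) and 1.14 ± 0.11 in the second (adjusted p = 0.000295). Zfp87 (chr13:67515781-67526177), a KRAB gene with 15 fingers, was at 3.56 to 6.66 RPKM at 0 min, 0.968 to 2.47 at 30 min, and 8.15 and 7.51 at 120 min. Its fall at 30 min was no longer called without WT replicate 2 of 0 min or without either WT library of 30 min, with adjusted p-values of up to 0.0656.

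Among members with known roles, 4 genes of the list for retroelement and imprint silencing were measured. Zfp445, which helps keep imprinted methylation, fell steadily, from 20.7 to 27.4 RPKM at 0 min to 13.4 to 16.9 at 30 min and 8.65 in WT and 4.84 in mutant cells at 120 min (-1.70 ± 0.15, adjusted p = 0.000112). Zfp809, which silences murine leukaemia virus sequences, was at 8.86 to 14.2 RPKM at 0 min, 6.49 to 7.42 at 30 min (-0.64 ± 0.15, adjusted p = 0.0289), and 15.5 and 15.3 at 120 min. Against 0 min, Zfp445 was thus called lower at 120 min, while Zfp809 was not called. Zfp568, a repressor of the placental Igf2 transcript, changed by 0.25 at 30 min and -0.21 at 120 min and was called in neither, nor was Zfp429. From 30 to 120 min Zfp568 fell by 0.46 (adjusted p = 0.0317).

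In the list of 10 genes tied to lymphoid cells, Zfp217 alone was called at 30 min, and 3 genes were higher and 3 lower at 120 min. These are 10% and 60% called, where 19.0% and 59.7% of all genes were, so the share at 120 min is that of all genes. Besides Zfp217 those higher were Zfp281 (0.96) and the ubiquitin ligase Zfp91 (0.81). Those lower were Zfp831 (-1.70), Zfp683 (-1.19), which encodes Hobit, a factor of tissue-resident T cells, and Zfp318 (-1.0), which acts in IgD expression in B cells. Zfp683 was low throughout, at 1.48 to 3.04 RPKM at 0 min and 0.648 in WT and 0.148 in mutant cells at 120 min. Zfp148, Zfp335, Zfp296 and Zfp64 were called at neither time.

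Of 9 members that act on ribosomes, RNA or mitosis, 4 were lower and 0 higher at 120 min, or 44.4% called, where 59.7% of all genes were called and 40.4% were lower. Zfp598, which ubiquitinates collided ribosomes, was at 32.4 to 45.6 RPKM at 0 min, 31.7 to 42.0 at 30 min, and 19.97 in WT and 14.2 in mutant cells at 120 min (-1.19 ± 0.12, adjusted p = 0.00023). The RNA-binding Zfp106 changed by -1.31 and Zfp346, which binds double-stranded RNA, by -0.62, the latter already lower at 30 min (-0.66). Zfp330 changed by -0.31. The spindle factor Zfp207 and Zfp326, Zfp593 and Zfp830 were called at neither time.

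The 2 measured partners of the chromatin reader Zmynd8 moved apart. Zfp592, the member of highest level, was at 32.1 to 41.7 RPKM at 0 min, 33.1 to 45.1 at 30 min, and 70.8 in WT and 54.9 in mutant cells at 120 min (0.74 ± 0.10, adjusted p = 0.000887). Zfp687 was at 8.58 to 11.5, 5.80 to 7.62, and 4.88 and 4.22 RPKM at the 3 times (-0.99 ± 0.16, adjusted p = 0.00173). Among 7 activators and ligases, Zfp131 was higher at 120 min and 4 were lower (71.4% called, where 59.7% of all genes were). The 4 were Zfp746 (-1.40), a KRAB repressor of PGC-1α, Zfp143 (-0.80), Zfp263 (-0.48) and Zfp384 (-0.38). Zfp143, the factor named above for its DNA element, was at 9.04 to 11.5 RPKM at 0 min, 6.78 to 7.77 at 30 min (-0.41 ± 0.10, adjusted p = 0.0316), and 4.71 and 6.09 at 120 min. Zfp410 and Zfp451 were in the same list.

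The partners through which KRAB proteins silence were followed in 30 tested genes of a list of 32. At 30 min 1 was higher (Suv39h2) and 6 lower, 23.3% called, where 19.0% of all genes were. At 120 min 10 were higher and 11 lower, 70.0% called, where 59.7% of all genes were. Trim28, which binds the KRAB domain, was at 78.8 to 94.0 RPKM at 0 min, 102 to 115 at 30 min, and 190 in WT and 209 in mutant cells at 120 min (1.18 ± 0.11, adjusted p = 0.00017). Chd4, the remodeller of the NuRD complex, rose by 1.57, and Uhrf1 and Atf7ip by 1.28 and 1.12. The HP1 gene Cbx5 changed by -1.08, Mta1 by -1.23 and Pphln1 of the HUSH complex by -1.16. Setdb1 changed by -0.25 (adjusted p = 0.128).

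Other families with zinc-binding domains were counted in the same way. As a background, 12.5% of all genes were lower and 6.51% higher at 30 min, and 40.4% and 19.3% at 120 min. Of 18 Zscan and Zkscan genes, which pair fingers with a SCAN domain, 9 were lower and 0 higher at 30 min, and 10 and 0 at 120 min. Of 30 Zbtb genes 9 were lower and 4 higher at 30 min, and 8 and 12 at 120 min. Of 15 Zc3h genes, which bind RNA, 1 was lower and 2 higher at 30 min, and 3 and 8 at 120 min. Of 19 Zdhhc genes, which encode palmitoyltransferases, 1 was lower and 0 higher at 30 min, and 12 and 2 at 120 min. Called at 30 min were 50% of Zscan and Zkscan, 43.3% of Zbtb, 20% of Zc3h and 5.26% of Zdhhc genes, against 19.0% of all genes. At 120 min these shares were 55.6%, 66.7%, 73.3% and 73.7%, against 59.7% of all genes. Median log2 changes at 120 min were -0.76 in Zscan and Zkscan genes, -0.70 in Zdhhc genes, -0.55 in Zfp members, 0.18 in Zbtb genes and 0.46 in Zc3h genes, where that of all genes was -0.32.

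Within the Zfp members, those with a KRAB match were lower in level and fell more often at 30 min. Their median level was 2.10 RPKM against 6.57 RPKM in members without a match, and their median number of fingers 12 against 7. At 30 min 41 of 122 were lower and 4 higher, against 23 of 108 lower and 4 higher without a match, and median changes were -0.43 and -0.19. Because level differs between the classes, all members were ordered by level and cut into 3 equal bands. In the middle band (1.84 to 6.02 RPKM) 21 of 45 KRAB members and 9 of 33 others were lower, with medians of -0.50 and -0.17. In the lowest band the counts were 15 of 56 and 4 of 18 (medians -0.47 and -0.31), and in the highest 5 of 21 and 10 of 57 (medians -0.23 and -0.15). At 120 min the classes were closer, with 66 of 122 and 55 of 108 lower and 11 and 19 higher. These counts describe classes of related genes, and the difference between classes was not tested.

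**Figure D4:**
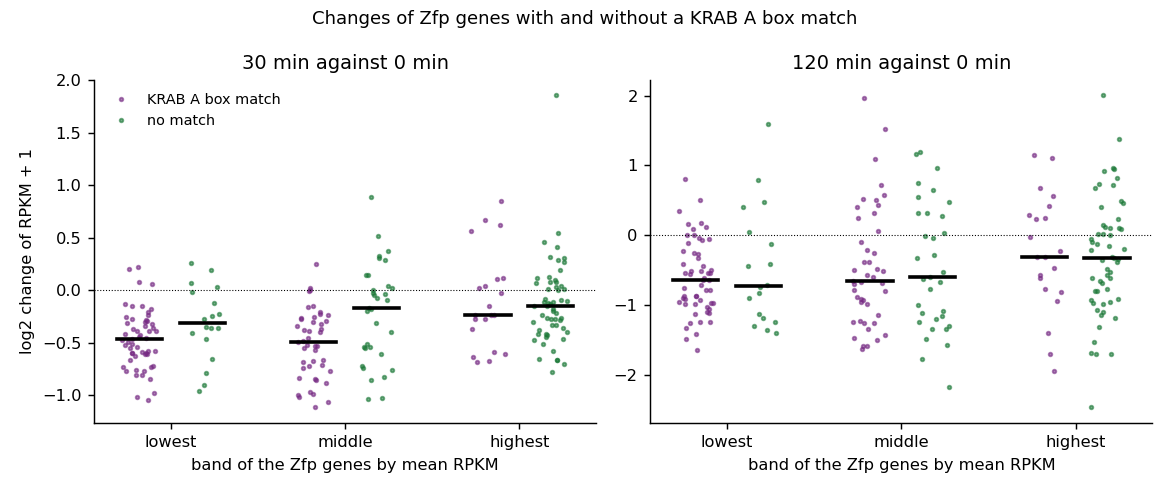
Log2 change of RPKM + 1 at 30 min (left) and 120 min (right) against 0 min for each Zfp gene with a KRAB A box match (purple) and without one (green), in 3 equal bands of the members by mean RPKM; black bars are medians. At 30 min the purple median is below the green one in each band, by most in the middle band (-0.50 and -0.17).

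Runs of neighbours differed in how many members were called. The 4 described here were chosen after their values were seen. As a background, 28.0% of all members and 12.5% of all genes were lower at 30 min, and 53.0% and 40.4% at 120 min. On chr6:47835661-48623227, 8 of 9 members were lower at 120 min, among them Zfp746, Zfp956, Zfp398 and the pseudogene Zfp783, and Zfp212 in the same run was higher. On chr17:32765496-33631779, 6 of 9 were lower at 30 min, with Zfp799, Zfp763 and Zfp414 among them. Of 6 members without KRAB on chr7:4915217-5053723 (Zfp628, Zfp579, Zfp524, Zfp865, Zfp784 and Zfp580), 5 were lower at 120 min. The run of 12 on chr7:29768552-30169750 was mixed at 120 min, with 5 lower and 3 higher, and it holds Zfp14, Zfp382 and Zfp146. Among all members in runs of 3 or more 57.0% were lower at 120 min, and among those alone 46.8%. Level also differs here, with medians of 2.28 RPKM in such runs and 5.88 RPKM alone. In the lowest, middle and highest bands by level 56.6%, 55.1% and 47.4% of members were lower at 120 min. The difference between runs and members alone was not tested.

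In each genotype alone, the 30 min response rested on 2 libraries against 2. In WT cells 3 members were higher and 11 lower (6.03% of members and 6.03% of all genes called, the latter 3.21% higher and 2.82% lower). In mutant cells 2 were higher and 7 lower (3.88%, against 2.74% of all genes, 1.68% higher and 1.06% lower). Zfp703 rose by 1.61 in WT and 2.09 in mutant cells and Zfp212 by 0.91 and 0.79. In WT cells Zfp954 also rose, and the largest falls were Zfp799, Zfp235, Zfp397, Zfp160 and Zfp623 (-1.17 to -0.90). In mutant cells Zfp623, Zfp763, Zfp160, Zfp952 and Zfp866 fell most (-1.15 to -0.80). All of these calls ended when 1 library of the genotype concerned was left out, or when the spread was taken from the compared groups alone.

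Whether the genotypes responded differently was tested as an interaction, and 0 members passed at 30 or at 120 min, as did 0 of all genes (0%). With limma 9 members at 30 min and 3 at 120 min had an unadjusted p below 0.05, and limma-voom on recovered reads also called 0. The smallest p-values at 30 min were those of Zfp764, Zfp395 and Zfp865 (adjusted p = 0.876), and at 120 min those of Zfp317, Zfp513 and Zfp445 (adjusted p = 0.892 to 0.911). For Zfp317 the difference of responses at 120 min was 0.89, the fall being -2.39 in WT and -1.50 in mutant cells.

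Between genotypes over all times, 4 members were higher and 5 lower in Ikaros-Zn4-/- cells, 3.88% of members where 9.42% of all genes were called (6.19% higher and 3.24% lower). The 4 higher were Zfp61, Zfp608, Zfp609 and Zfp217, and the 5 lower were Zfp219, Zfp839, Zfp831, Zfp169 and Zfp592. Ikzf1, which encodes Ikaros, was at 134 to 171 RPKM in WT and 206 to 263 RPKM in mutant libraries. These values sum over the gene and do not show the deleted finger. Summed markers of some other cells also differed between the genotypes. The 3 B cell markers measured summed to 9.61 to 16.1 RPKM in WT and 29.8 to 49.4 in mutant libraries, and Ms4a1 and Pax5 had no value in the table. The 3 of 6 NK cell markers summed to 2.65 to 11.0 and 13.6 to 35.5 RPKM, with Klra8, Klrb1c and Ncr1 not listed. The sums overlapped for 3 of 6 myeloid markers (8.14 to 24.8 in WT and 8.59 to 34.2 in mutant libraries) and 2 of 5 markers of CD4 and regulatory T cells (2.995 to 33.9 and 4.56 to 34.9). The part of other cells in the genotype results was not tested.

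Zfp61 (chr7:24291039-24301232), a KRAB gene with 8 fingers, differed most clearly. It was at 2.69 and 2.72 RPKM in WT and 7.15 and 5.89 in mutant cells at 0 min, at 2.54 and 2.35 against 4.98 and 4.09 at 30 min, and at 1.22 against 3.86 at 120 min. Every mutant library was above every WT library. The level was 2.25-fold higher over all times, with a log2 difference of 0.90 ± 0.11 (adjusted p = 0.00101), and Zfp61 also passed at 0 min alone (1.02, adjusted p = 0.0254). That call was lost with spread from the compared groups only and in 6 of 10 fits without 1 library, with adjusted p-values of up to 0.167. Zfp61 was the only member called at 0 min, where 2.47% of all genes were (1.92% higher and 0.557% lower). Its promoter, shown above, holds a TGACGT match and no TGGGAA, which says only that these letters are not in that window. The window lies before the RefSeq start site but inside the gene by GENCODE M21. The bases before the GENCODE start of Zfp61 were not searched.

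Zfp608, which has been described as a brake on Rag expression in thymocytes, was near the floor in WT cells, at 0.169 to 0.212 RPKM at 0 and 30 min and 0.826 at 120 min. In mutant cells it was at 0.823 to 1.13 RPKM at 0 and 30 min and 2.92 at 120 min. At each time mutant libraries were above WT libraries, though with as few as 8 reads in a library (log2 difference 0.81 ± 0.13, adjusted p = 0.00409). It is 1 of 7 members that reach the table's 1 RPKM only in mutant groups, so it had to differ between genotypes. Its relative Zfp609, a partner of the Integrator complex, was at 4.56 to 5.60 RPKM in WT and 6.31 to 7.50 in mutant cells, without overlap (0.39 ± 0.09, adjusted p = 0.0246). Zfp217, described above, was higher by 0.33 (adjusted p = 0.044).

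Zfp831, the lowest-p member of the 5 reduced in the mutant, was at 13.7 and 12.1 RPKM in WT and 9.47 and 8.17 in mutant cells at 0 min. At 30 min it was at 12.6 and 12.2 against 8.57 and 7.44, and at 120 min at 3.78 against 1.68. Mutant libraries were below WT libraries at each time (-0.60 ± 0.09, adjusted p = 0.0035). Zfp219 was at 3.51 and 3.35 against 0.828 and 1.77 RPKM at 0 min, 2.99 and 2.63 against 1.92 and 1.65 at 30 min, and 4.23 against 2.70 at 120 min (-0.67 ± 0.15, adjusted p = 0.0232). Zfp839 was lower by 0.62 (adjusted p = 0.0495), Zfp169 by 0.38 (adjusted p = 0.0453) and Zfp592 by 0.30 (adjusted p = 0.0343).

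The calls of Zfp61, Zfp608 and Zfp831 over all times held in every alternative in which they were fitted. Spread from the compared groups only was not fitted over all times, and Zfp608 was below the minimum of 2 RPKM. Since Zfp608 had to differ by the table's limit of 1 RPKM, its holding adds no support. Leaving out 1 of the 10 libraries left 2 or 3 members higher and 1 to 4 lower, whichever library it was. The call was lost for Zfp839 and Zfp169 without any 1 of the 10, for Zfp217 in 9, Zfp592 in 8, Zfp609 in 6 and Zfp219 in 3 of these 10 fits. At 30 min alone 0 members were called, where 2.61% of all genes were (2.01% higher and 0.606% lower), with 20 members at an unadjusted p below 0.05 in limma. Limma-voom called 1 higher and 1 lower.

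**Figure D5:**
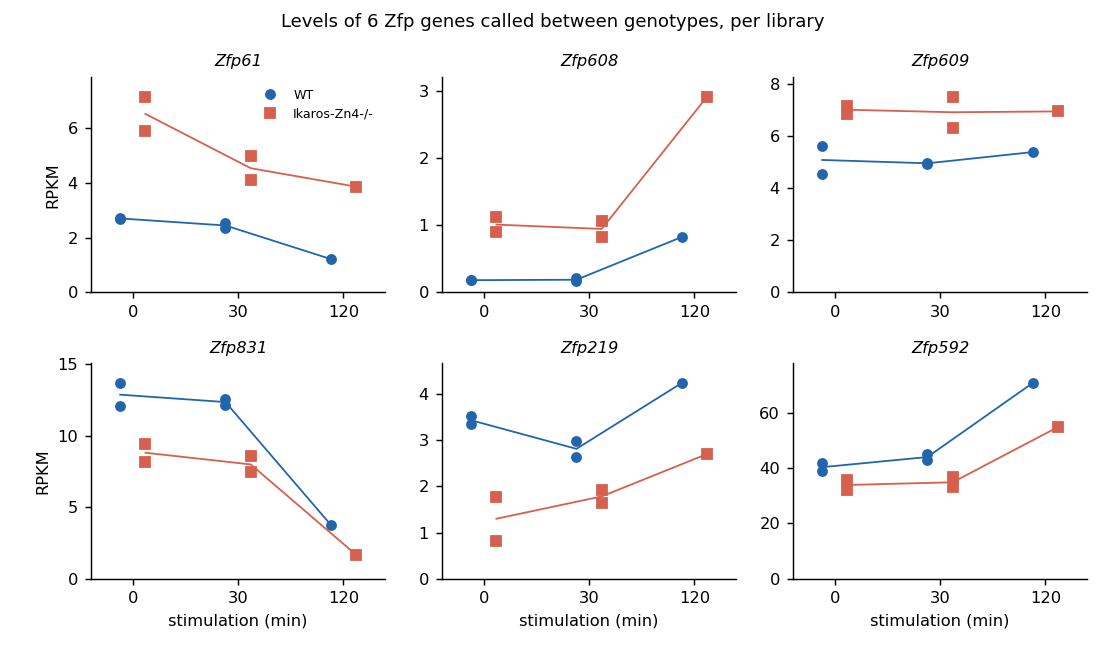
RPKM (vertical axes, each from 0) of 6 Zfp genes called between the genotypes, at 0, 30 and 120 min, drawn at even spacing, in WT (blue circles) and Ikaros-Zn4-/- cells (red squares); each point is 1 library and lines join group means. Zfp61, Zfp608 and Zfp609 are higher and Zfp831, Zfp219 and Zfp592 lower in mutant cells at each time, and in Zfp61 and Zfp609 every mutant library is above every WT library.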

How the data were processed

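RNA libraries of 10 CD8+ T cell samples were single-end and made with a kit that does not mark strand, per the labels' protocols. The authors deposited RPKM values, 1 column per library. The submitters' processing notes name HTSeq 0.6.1, TopHat and TopHat2 2.0.12, and mm10 (GRCm38). How reads were counted, and over which gene lengths, is not given in the sources used here, so reads of overlapping genes on opposite strands cannot be told apart. Of the Zfp symbols, 1 (Zfp319) was listed under 2 identifiers with identical values and counted once.

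Tests used limma 3.58.1 (R 4.3.3) on log2(RPKM + 1), for 12203 genes at or above a mean of 0.5 RPKM, with 1 mean per group over all 10 libraries (4 residual degrees of freedom) and an intensity trend. Genotype over all times was fitted beside time (6 degrees of freedom). P-values were two-sided and Benjamini-Hochberg adjusted over all genes, with a threshold of 0.05. The analysis was tested on simulated data. Named members were the 10 largest changes in each direction among those called, up to 5 in the smaller comparisons, the 10 of highest level and all of the role lists. Members of runs and of the fall-and-rise pattern, and the promoters printed, were chosen after values were seen. Members and lists were chosen with earlier results of these data known.

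Depth was recovered from the steps of the RPKM values with GENCODE M21 exon lengths. Between 48% and 52% of member values below 200 reads came within 0.01 of a whole read, where 2% is the share by chance, so reads of the other members are approximate. Coding sequences were translated with Biopython 1.88, and fingers and KRAB A boxes were matched by letter patterns. Alternatives were pseudocounts of 0.1 and 0.5, no filter, a minimum of 2 RPKM, median-ratio scaling, quantile normalization, spread from the compared groups only, limma-voom on recovered reads, the replicate number as a block, and leaving out each library. Figures were made with matplotlib 3.10.9.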

Additional observations from a re-analysis of the deposited data

How the results depend on the processing

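No named call turned its direction under any alternative, and of 83 named calls 54 held in all in which they were fitted. The balance of members from 30 to 120 min did turn, with a median log2 change of -0.18 as reported and 0.10 with quantile normalization. For 30 against 0 min over both genotypes, 14, 15 and 14 members were higher with median-ratio scaling, quantile normalization and limma-voom on recovered reads, and 39, 35 and 100 lower, where 8 and 65 were reported. For 120 against 0 min (30 and 123) the scalings gave 57 and 55 higher, quantile normalization gave 70 lower and a minimum of 2 RPKM 78 lower. For 120 against 30 min (34 and 57) the scalings gave 59 and 61 higher, and quantile normalization 34 lower. In WT cells at 30 min (3 and 11) a minimum of 2 RPKM gave 6 higher, the scalings 11 and 10 higher and 7 lower each, and limma-voom 11 and 46. In mutant cells (2 and 7) limma-voom gave 4 and 38. Spread from the compared groups alone gave 0 in both genotypes. Between genotypes, limma-voom gave 2 higher and 2 lower at 0 min and 1 and 1 at 30 min, quantile normalization gave 1 lower at 0 min, and the compared groups alone gave 0 higher. Over all times (4 and 5), median-ratio scaling gave 2 higher, and a minimum of 2 RPKM, quantile normalization and limma-voom gave 3, 8 and 10 lower.

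Leaving out 1 library gave 5 to 9 members higher and 17 to 65 lower for 30 against 0 min, 17 to 31 and 81 to 122 for 120 against 0 min, and 16 to 36 and 29 to 57 for 120 against 30 min. In WT cells at 30 min it gave 0 to 3 and 0 to 12, and in mutant cells 0 to 2 and 0 to 7. Between genotypes it gave 0 to 1 higher and 0 to 1 lower at 0 min, 0 and 0 at 30 min, and 2 to 3 and 1 to 4 over all times. Where a 120 min library was left out, comparisons of 120 min over both genotypes kept only the other genotype. The cause of these shifts was not tested beyond the smaller number of libraries.

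With the replicate number as a block, 14 members were higher and 94 lower at 30 min over both genotypes, 10 higher and 36 lower in WT cells, 4 higher and 23 lower in mutant cells, and 1 lower in the mutant at 30 min. The libraries share only a number. Differences between replicates 1 and 2 correlated across genes at 0.037 to 0.230 between groups, and the 120 min groups hold replicate 2 alone.

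Depth limits the low members most. In the 120 min libraries 18 and 21 members had fewer than 10 recovered reads, and the median member had 83 to 247.5 reads in a library.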
